A study of Mus musculus with 13 samples.

Results

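The genes described here are 9 genes of the adrenal medulla, out of 14078 genes with a transcript in all 3 of the deposited per-library tables. They are Th, Ddc, Dbh and Pnmt, the enzymes that make adrenaline; Slc18a1, which loads it into granules; Chga, Chgb and Scg2, the granins that fill those granules; and Npy, a peptide stored with them. They were picked by name for what they do, with earlier results of these data already known, and each was represented by 1 transcript. Whole adrenal glands of C57BL/6 mice were the source of RNA, and TAM induction in these mice regulates Star, the gene of the protein that hands cholesterol to the steroid-making enzymes of mitochondria. There were 5 libraries from before TAM, 4 from 24 h after TAM and 4 from 8 weeks after TAM. The Star allele and the driver and cell type of the recombinase are not given in the sources used here, nor are the age of the mice, the pooling of glands, or whether 2 libraries could share a mouse, so p-values measure the spread between libraries. No TAM-treated mice without the Star change were among the samples analysed here, so TAM, elapsed time and Star cannot be told apart.

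Chromaffin cells of the medulla make catecholamines from tyrosine. Th makes L-DOPA in the rate-limiting step, Ddc turns it into dopamine, Dbh makes noradrenaline inside the granule, and Pnmt adds the methyl group that makes adrenaline. Pnmt is the step known to depend on glucocorticoid, which reaches the medulla in blood that has passed through the cortex, whereas Th and Dbh are known to respond to nerve input through cyclic AMP. Adrenaline-making cells therefore carry all 4 enzymes, and noradrenaline-making cells carry the first 3.

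Listed reads per library ran from 17331673 to 27309429. Star was at 3207 to 4239 FPKM before TAM, 17.4 to 626 at 24 h and 85.9 to 202 at 8 weeks, so no later library reached an earlier one. FPKM is a read level scaled to transcript length and library total, so it allows genes to be compared within a library. The summed FPKM of 12 cortex genes was 19637 to 32327 before TAM, 4445 to 29567 at 24 h and 2017 to 5038 at 8 weeks. The lowest 24 h sum belonged to replicate 3, which went against its adrenal label: the cortex enzymes Cyp11b1 and Cyp21a1 were at 1.07 and 2.42 FPKM there, against at least 969 and 1391 in each of the other 24 h libraries, and the ACTH receptor gene Mc2r was at 0.132 FPKM. In the same library the steroidogenic genes Hsd3b1 and Nr5a1 stood at 3024 and 104 FPKM. Albumin, Alb, reached 13283 FPKM in 8-week replicate 3 and 978 FPKM in replicate 5 from before TAM. Cela1, a pancreatic elastase gene, reached 1097 FPKM in 8-week replicate 1. A transcript in all 3 per-library tables was found for 1 of 6 liver list genes, 1 of 6 pancreas and 0 of 7 kidney. Genes missing from any of these tables were not read.

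The 250 bases before the RefSeq start (GRCm38.p6) were read for 7 of the 9 genes; Pnmt and Slc18a1 had no entry. These stretches are shown because the 9 genes moved together across the libraries, and the letters searched for include the cyclic AMP response element TGACGTCA, which holds its shorter core TGACG on both strands. Capitals mark the element, its variant TGACGTAA, or the core. The stretches for Th (chr7:142899996-142900245, minus strand), Dbh (chr2:27165257-27165506, plus strand) and Chga (chr12:102554691-102554940, plus strand) follow in full, and 30 bases around the element are given for Scg2 (chr1:79440076-79440105, minus strand) and Chgb (chr2:132781559-132781588, plus strand), whose stretches overlap deposited transcripts.
Th: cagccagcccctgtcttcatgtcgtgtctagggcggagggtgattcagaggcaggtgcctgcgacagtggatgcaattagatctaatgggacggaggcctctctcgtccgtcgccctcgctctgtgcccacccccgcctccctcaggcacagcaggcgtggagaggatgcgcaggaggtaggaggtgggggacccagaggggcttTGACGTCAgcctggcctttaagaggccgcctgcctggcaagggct
Dbh: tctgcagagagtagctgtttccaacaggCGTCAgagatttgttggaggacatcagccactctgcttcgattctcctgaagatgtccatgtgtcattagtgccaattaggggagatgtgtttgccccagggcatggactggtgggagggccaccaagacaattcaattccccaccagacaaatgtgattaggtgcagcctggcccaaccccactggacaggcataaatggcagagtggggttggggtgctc
Chga: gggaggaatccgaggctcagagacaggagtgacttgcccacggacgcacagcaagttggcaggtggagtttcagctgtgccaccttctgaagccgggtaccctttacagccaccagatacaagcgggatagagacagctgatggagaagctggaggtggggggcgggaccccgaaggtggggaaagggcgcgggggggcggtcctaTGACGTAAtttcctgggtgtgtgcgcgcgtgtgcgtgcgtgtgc
Scg2: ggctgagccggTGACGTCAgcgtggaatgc
Chgb: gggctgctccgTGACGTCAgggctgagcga
The full element TGACGTCA lay in the stretches of Th, Scg2 and Chgb, that is 3 of the 7 genes, and in 1.55% of all 32851 promoter stretches of that length, counting both strands. It began 45 bases before the start in Th, 68 in Scg2 and 72 in Chgb. Chga had TGACGTAA from 44 bases before its start, a variant found in 0.447% of all stretches. The stretch of Dbh held the core TGACG on its other strand, and the core was in 17.8% of all stretches. GCGNGGGCG, the letters bound by EGR1, was in Th and Chgb and in 4.70% of all stretches. The palindrome bound by the glucocorticoid receptor, AGAACA and TGTTCT with 3 bases between them, was in none of the 7 genes' stretches and in 0.00913% of all. A match describes the letters only, and no binding was measured.

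Th (mm10 chromosome 7, 142892776 to 142899966, minus strand) had 258, 323, 96.5, 149.8 and 160.2 FPKM in replicates 1 to 5 from before TAM. At 24 h its values were 377, 183, 2.36 and 14.9 FPKM, and at 8 weeks 363, 582, 360.3 and 446 FPKM. The 8-week libraries all lay above the libraries from before, whereas the 24 h libraries split: replicates 1 and 2 were within or above the earlier range and replicates 3 and 4 far below it. Reads over Th numbered 130 and 580 in those low libraries and at least 4846 in each of the other 11.

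Ddc (chromosome 11, 11814101 to 11890408, minus strand) ran from 11.1 to 36.2 FPKM before TAM and from 48.1 to 69.9 FPKM at 8 weeks. Its 24 h values were 31.5, 20.3, 0.245 and 1.09 FPKM. As for Th, the 8-week libraries did not overlap those from before and 24 h replicates 3 and 4 were lowest, but 24 h replicate 1 lay below replicate 2 from before.

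Dbh (chromosome 2, 27165507 to 27183204, plus strand) had 187.1, 295, 77.7, 128.9 and 136 FPKM before TAM. It had 416, 187.8, 1.41 and 11.2 FPKM at 24 h and 242, 419, 332 and 392 FPKM at 8 weeks. The 8-week replicate 1 lay below replicate 2 from before, so these groups overlapped, and 24 h replicate 1 was level with the highest 8-week library.

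Pnmt (chromosome 11, 98386632 to 98388097, plus strand) had 79.0, 624, 148.3, 219 and 233 FPKM before TAM. It had 112, 95.8, 0.323 and 0.153 FPKM at 24 h, the last pair from 9 and 3 reads. At 8 weeks it had 383, 545, 444 and 553 FPKM. Pnmt was thus low in every 24 h library: replicates 1 and 2, which had Th and Dbh within or above their earlier ranges, had Pnmt below 4 of the 5 libraries from before. The exception among the earlier libraries was replicate 1, where Pnmt was at its lowest for that group while Th was second highest.

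**Figure D1:**
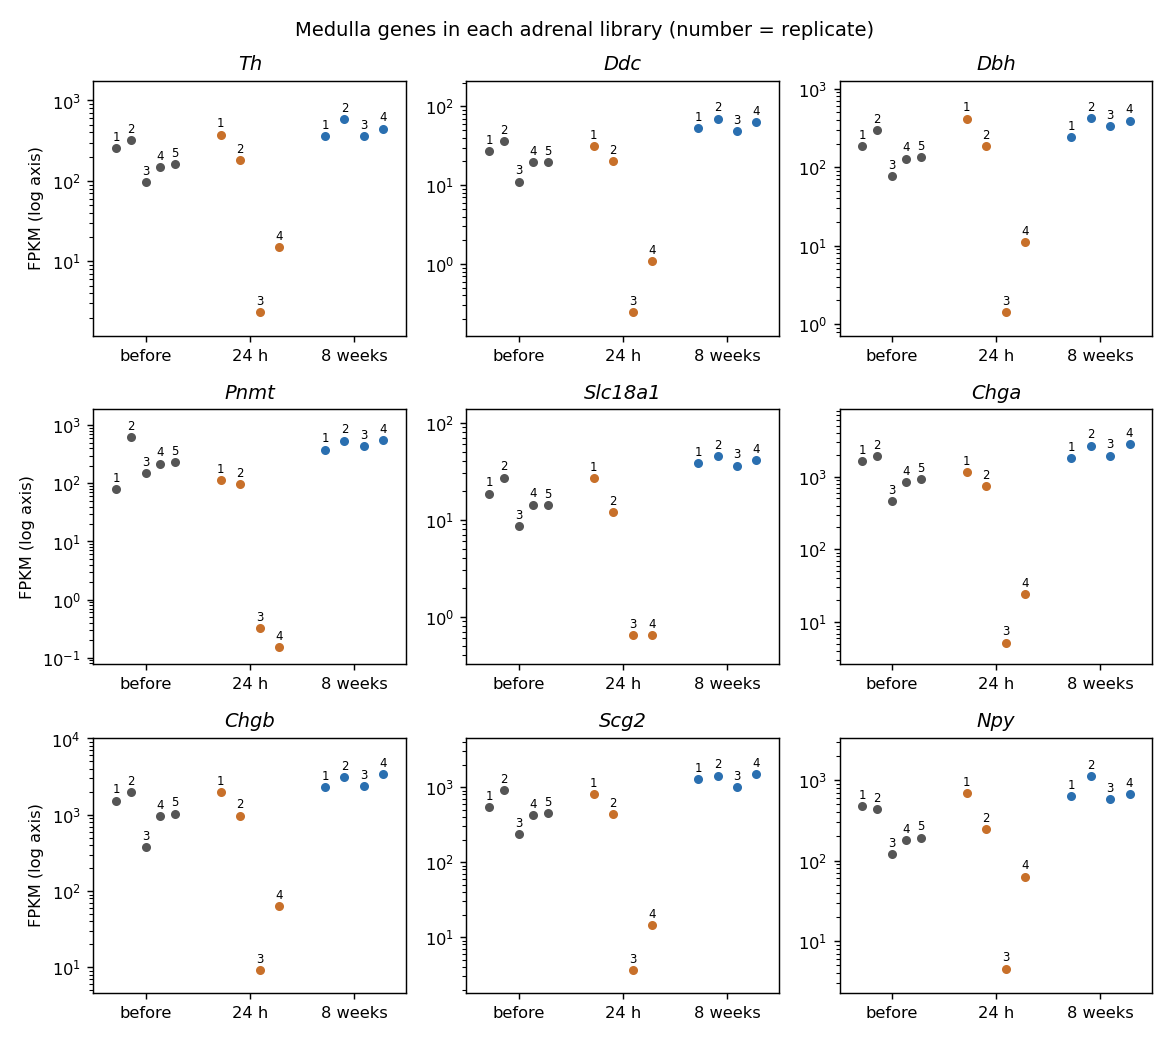
FPKM of each gene (log axis, 1 panel per gene) in the 5 libraries from before TAM, 4 at 24 h and 4 at 8 weeks, each point 1 library with its replicate number. In all 9 panels 24 h replicates 3 and 4 lie below every other library, and Pnmt alone has 24 h replicates 1 and 2 (112 and 95.8 FPKM) below 4 of the 5 earlier libraries.

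Slc18a1, the granule's monoamine transporter (chromosome 8, 69037845 to 69089359, minus strand), was the least abundant of the 9 in 11 of the libraries. It ran from 8.54 to 27.3 FPKM before TAM and from 36.1 to 45.7 FPKM at 8 weeks, without overlap. Its 24 h values were 26.7, 11.9, 0.644 and 0.652 FPKM. Slc18a2, the other vesicular monoamine transporter and not one of the 9, was at 53.7 FPKM in 24 h replicate 3, the highest of the 13 libraries, and at 0.880 FPKM in replicate 4.

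The granins were the 3 most abundant of the 9 in each library other than 24 h replicates 3 and 4, where Npy ranked above Scg2 and, in replicate 4, above Chga as well. Chga (chromosome 12, 102554969 to 102565027, plus strand) had 1619, 1911, 462, 829.2 and 932 FPKM before TAM, 1155, 737, 5.27 and 24.5 FPKM at 24 h, and 1778, 2659, 1938 and 2774 FPKM at 8 weeks. Chgb (chromosome 2, 132781278 to 132795072, plus strand) ran from 377 to 1963 FPKM before TAM and from 2318 to 3386 FPKM at 8 weeks, with 2003, 977, 9.23 and 63.8 FPKM at 24 h. These 2 genes changed places as first and second in libraries from before, so their order did not hold there, whereas Chgb was first in each 24 h and 8-week library. Scg2 (chromosome 1, 79434669 to 79440090, minus strand) followed Chga and Chgb in those other 11 libraries, with 236 to 910 FPKM before TAM, 990 to 1505 FPKM at 8 weeks, and 802, 441, 3.61 and 14.4 FPKM at 24 h.

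Npy (chromosome 6, 49822729 to 49829505, plus strand), which encodes neuropeptide Y, had 476, 440, 120.2, 179 and 193 FPKM before TAM. It had 688, 247, 4.56 and 63.4 FPKM at 24 h and 633, 1109, 585 and 672 FPKM at 8 weeks. Npy was the member least reduced in 24 h replicate 4, 4.45-fold below the mean from before, against 13.2-fold for Th and 47.1-fold for Chga there.

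By group, Th averaged 197 ± 91.0 FPKM before TAM (SD, n = 5), and 144 ± 176 and 438 ± 104 FPKM at 24 h and 8 weeks (SD, n = 4 each). Pnmt averaged 261 ± 212, 52.1 ± 60.3 and 481 ± 82.0 FPKM in the same groups. Chga averaged 1151 ± 596, 481 ± 564 and 2287 ± 502 FPKM. At 24 h the SD of each of the 9 genes exceeded its mean, since that group held 2 libraries with medulla transcripts and 2 nearly without. The 9 genes took 1.32% and 0.667% of listed reads in 24 h replicates 1 and 2, and 0.00651% and 0.0383% in replicates 3 and 4, against 0.341% to 1.52% before TAM and 1.67% to 2.34% at 8 weeks. In whole-gland RNA fewer chromaffin cells and less RNA per cell cannot be told apart.

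Between 8 weeks and before TAM all 9 genes had higher means at 8 weeks, from 1.85-fold for Pnmt and 1.99-fold for Chga to 2.57-fold for Ddc and 2.66-fold for Npy. In the edgeR fit of all 13 libraries 0 of 9 passed an adjusted p of 0.05, where 36.9% of all genes tested passed in either direction and 20.5% passed as higher; 0 of 9 had an unadjusted p under 0.05, and DESeq2 called 0, beside 41% of all genes. The log2 fold changes had a median of 1.39, against 0.03 over all genes tested, and the largest was that of Npy, 1.54 (SE 0.87, adjusted p = 0.18 by edgeR). With only the 2 compared groups in the edgeR fit, 8 of 9 were higher and Pnmt was not called, beside 27.3% of all genes called higher. There Ddc changed by 1.46 (SE 0.26, adjusted p = 0.0013), Slc18a1 by 1.39 (SE 0.25, adjusted p = 0.0014), Th by 1.25 (SE 0.31, adjusted p = 0.0067) and Pnmt by 0.99 (SE 0.48, adjusted p = 0.10) in log2 units by edgeR. The count was 7 to 9 when each of the 9 libraries was left out of that fit, with Pnmt among those called without replicate 2 from before, and DESeq2 on the same 2 groups called all 9, beside 28.9% of all genes called higher. Without scaling factors the same 2 groups gave 8 called, beside 23.6%.

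The fold changes of the 2 fits were nearly equal, and what differed was the spread: the biological coefficient of variation of the 9 genes was 0.803 to 1.15 over all 13 libraries and 0.277 to 0.494 over the 2 groups. Leaving 24 h replicates 3 and 4 out of the wider fit also gave 8 of 9 called, beside 28% of all genes called higher, and leaving out replicate 3 alone gave 1, beside 24.3% (Npy, adjusted p = 0.040 by edgeR). Counted by overlap, 6 of 9 (Th, Ddc, Slc18a1, Chgb, Scg2 and Npy) had every 8-week library above every earlier one, as did 18.1% of all genes, and 0 had every one below, as did 26.5%. In the authors' deposited table, which compares these groups per transcript, the log2 ratios of the 9 ran from 1.14 to 1.57. The q-value in the authors' deposited table was under 0.05 for 5 of them (Th, Ddc, Slc18a1, Scg2 and Npy) and for 7466 of its 19655 transcripts.

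**Figure D2:**
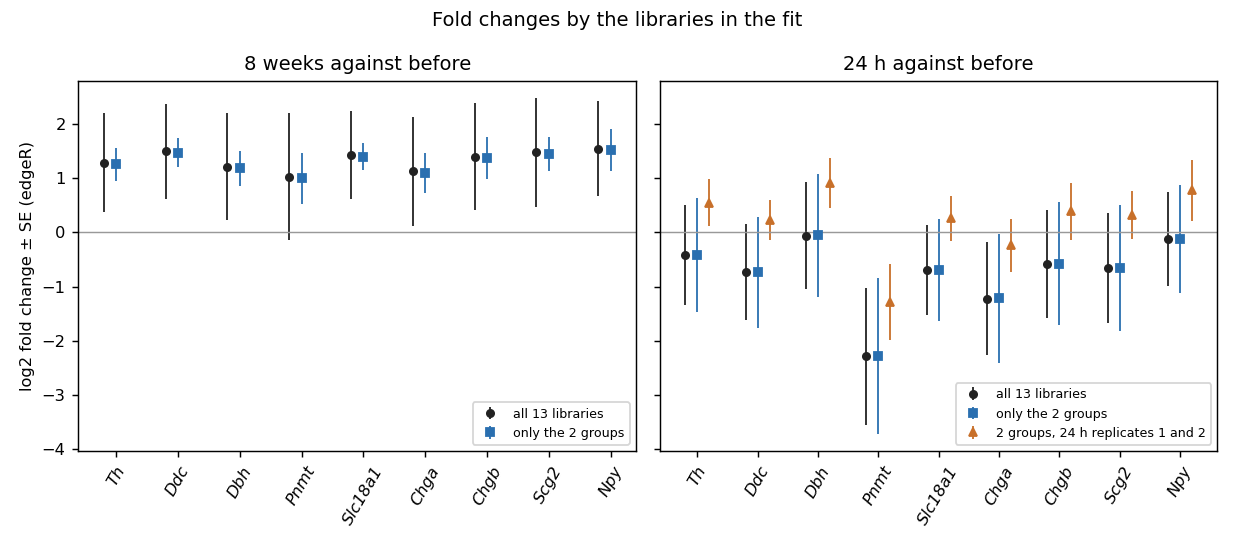
Log2 fold change with its SE from edgeR for each gene, at 8 weeks (left) and 24 h (right) against before TAM, by the libraries in the fit. On the left the points of both fits lie between 0.99 and 1.54 with shorter bars in the fit of 2 groups; on the right 7 of 9 change sign when 24 h replicates 3 and 4 are left out, and Pnmt is lowest in each fit.

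Other cell types moved with this comparison. The summed FPKM of the 12 cortex genes was lower at 8 weeks, as given above, and 6 of 12 passed as lower in the fit of all libraries, among them Nr5a1 and Hsd3b1 with log2 fold changes of −3.36 and −3.37. Over 9 macrophage genes the sum was 269 to 932 FPKM before TAM and 5379 to 10493 at 8 weeks, with 9 of 9 called higher. Over 10 fat cell genes the sum was 197 to 2903 FPKM before TAM and 10080 to 22163 at 8 weeks, with 4 of 10 called higher. Of 10 neuron genes, many of which chromaffin cells also express, 4 were called higher, among them Tubb3 at 1.77, and of 6 Schwann and supporting cell genes 3 were, among them Fabp7 at 3.68 in log2 units. In the fit of all libraries 20.5% of all genes tested were called higher and 36.9% in either direction. With 1 library left out of it, 4 to 11 cortex, 8 to 9 macrophage and 1 to 9 fat cell genes were called. Neuron genes called then numbered 2 to 6, and Schwann and supporting cell genes 2 to 5. With only the 2 groups fitted, again with 1 library left out, cortex had 9 to 11, macrophages 9 and fat cells 7 to 9. Neurons then had 7 to 10 and Schwann and supporting cells 4 to 5. The part of a smaller share of cortex RNA in the higher medulla values was not tested.

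**Figure D3:**
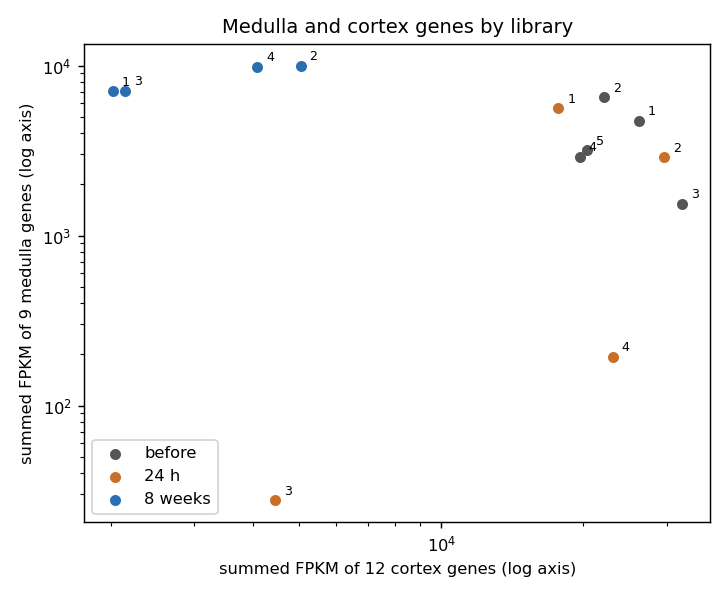
Summed FPKM of the 9 medulla genes (vertical, log axis) against that of 12 cortex genes (horizontal, log axis), each point 1 library with its replicate number. The 8-week libraries sit at upper left, with cortex sums of 2017 to 5038; 24 h replicate 4 has few medulla transcripts beside a cortex sum of 23061, of which Akr1b7 makes up 12988, and replicate 3 is low on both axes.

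Between 24 h and before TAM, 0 of 9 passed in the fit of all libraries, beside 19.2% of all genes in either direction; edgeR gave 0 an unadjusted p under 0.05, and DESeq2 called 0, beside 24.2% of all genes. The median log2 fold change was −0.66, against 0.03 over all genes tested, and the values ran from −2.28 for Pnmt (SE 1.26, adjusted p = 0.24 by edgeR) to −0.06 for Dbh (SE 0.99). These values depended on replicates 3 and 4. Without them, in the fit of the remaining libraries, 7 of 9 genes had positive values, from 0.24 for Ddc to 0.93 for Dbh, and Pnmt and Chga stayed negative at −1.27 and −0.22; again 0 were called, beside 21% of all genes. Dbh and Th, at 0.93 and 0.56, then lay on the other side of 0 from Pnmt. No gene of the 9 had all 24 h libraries above or below all earlier ones, as 9.75% and 8.01% of all genes had.

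The 2 low 24 h libraries were not alike in their cortex transcripts, but both were low in red blood cell genes. Over 5 listed red blood cell genes the sum was 15.964 and 76.79 FPKM in 24 h replicates 3 and 4. It was 252 and 365 FPKM in 24 h replicates 1 and 2, 375 to 1154 before TAM and 505 to 902 at 8 weeks. Why both sums were low was not tested. Replicate 4 had a cortex sum of 23061 FPKM, within the range from before, but Akr1b7, an aldose reductase gene, supplied 12988 of it, against 553 to 6795 FPKM before TAM. Without Akr1b7, a reading chosen after seeing the data, its sum was 10073 FPKM, against 19084 to 25532 before TAM. By that reading 24 h replicates 1 and 2 had 12242 and 20128 FPKM. In replicate 4 Cyp11b1 (969 FPKM), Cyp21a1 (1391), Hsd3b1 (1067) and Nr5a1 (93.6) each lay below every library from before. This was not particular to replicate 4. In replicate 1, which held medulla transcripts, the same genes did too (1079, 2753, 2216 and 132 FPKM), as did all but Cyp11b1 in replicate 2. Replicate 3 had Cyp11b1 and Cyp21a1 near 0 and the aldosterone synthase gene Cyp11b2 at 0.0883 FPKM, while Hsd3b1 was at 3024 and Cyp11a1 at 983 FPKM. Hand2, a transcription factor gene of the sympathoadrenal line, was at 0.114 FPKM in replicate 3 and at 0.647 FPKM in replicate 4, against at least 7.85 FPKM in each library from before. Hand2 was picked after its values were seen. Over all 11 chromaffin transcription factors the sum was 4.64 and 6.29 FPKM in replicates 3 and 4, against 30.5 to 120 before TAM. Eya1, on that list, was at 1.41 FPKM in replicate 3, within its range from before of 1.02 to 4.77. The low values thus reached the enzymes, the granins and the factors as a sum, but not Eya1 in replicate 3.

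Between 8 weeks and 24 h, 0 of 9 passed in the fit of all libraries, beside 20.8% of all genes in either direction, with 3 of 9 at an unadjusted p under 0.05. DESeq2 called 1, Pnmt, with an adjusted p of 0.043, beside 28.3% of all genes. The median log2 difference was 2.12, against −0.03 over all genes tested, and the largest was that of Pnmt, 3.31 (SE 1.35, adjusted p = 0.095 by edgeR). Of the 9, 6 (Ddc, Pnmt, Slc18a1, Chga, Chgb and Scg2) had every 8-week library above every 24 h library, as did 9.92% of all genes, and 0 had every one below, as did 13.3%. Without 24 h replicates 3 and 4 Pnmt differed by 2.26 (SE 0.66, adjusted p = 0.034) and Ddc by 1.22 (SE 0.36, adjusted p = 0.036) by edgeR, and these 2 were called higher, beside 8.51% of all genes. In the fit of only those 2 groups without replicates 3 and 4, 4 were called higher (Ddc, Pnmt, Slc18a1 and Chga), beside 7.94% of all genes. Without replicate 1 of 24 h the 2 called were Slc18a1 and Npy, beside 11.4% of all genes, so this count changed with the library left out.

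The ratio of Pnmt to Th within a library does not depend on how libraries are scaled. It does depend on the mix of medulla cells, since noradrenaline-making cells carry Th without Pnmt, and that mix was not measured. Only with a fixed mix is it free of how much medulla each library holds. Before TAM it was 0.307, 1.93, 1.54, 1.46 and 1.46 in replicates 1 to 5. At 24 h it was 0.298, 0.525, 0.137 and 0.0102, and at 8 weeks 1.05, 0.936, 1.23 and 1.24. Each 24 h library lay below each 8-week library and below 4 of the 5 earlier ones. The counting error is small except in 24 h replicate 3, with a 95% exact binomial interval of 0.0613 to 0.268, and in replicate 4, with 0.00210 to 0.0301; the intervals cover counting error only.

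Against Dbh the picture was the same. The ratio of Pnmt to Dbh was 0.422, 2.11, 1.91, 1.70 and 1.72 before TAM, 0.270, 0.510, 0.229 and 0.0136 at 24 h, and 1.58, 1.30, 1.34 and 1.41 at 8 weeks. The reference ratio, Th to Dbh, stayed between 0.906 and 1.67 in all 13 libraries, including the libraries almost without either transcript. It was lowest in 24 h replicates 1 and 2, at 0.906 and 0.972, below each of the other 11 libraries. The spread of Th to Dbh over the libraries was thus far narrower than that of either Pnmt ratio.

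**Figure D4:**
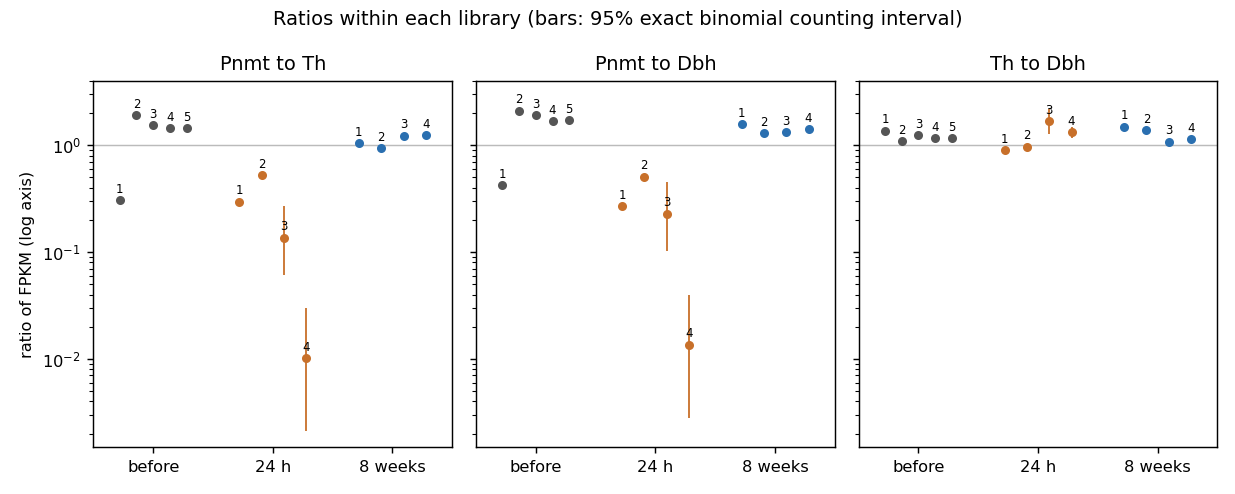
FPKM ratios of Pnmt to Th, Pnmt to Dbh and Th to Dbh (log axis) in each library, with 95% exact binomial counting intervals as bars. Th to Dbh stays near 1 in all libraries, while both Pnmt ratios are lower in the 4 libraries at 24 h and in replicate 1 from before TAM.

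The mean log2 ratio of Pnmt to Th, with a pseudocount of 0.5 FPKM, differed by −2.45 between 24 h and before (two-sided exact permutation test, p = 0.032, adjusted over 9 tests 0.095). That of Pnmt to Dbh differed by −2.52 (exact p = 0.048, adjusted 0.11). Between 8 weeks and 24 h the differences were 2.41 and 2.55, each with an exact permutation p of 0.029, the smallest that 4 against 4 can give, and an adjusted p of 0.095. Between 8 weeks and before they were −0.04 and 0.03 (exact permutation p = 0.90 each). None of the 9 tests, which include Th to Dbh with differences of −0.07 to 0.14, passed an adjusted p of 0.05. The pseudocount exceeded the Pnmt values of 24 h replicates 3 and 4 (0.323 and 0.153 FPKM). With a pseudocount of 0.1 FPKM the 24 h differences from before were −2.97 (to Th) and −3.01 (to Dbh). With 2 FPKM they were −1.82 and −1.96, and with either pseudocount no test passed an adjusted p of 0.05.

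Replicate 1 from before TAM decided those adjusted values. Without it all 6 Pnmt tests had an exact permutation p of 0.029, the smallest possible, and an adjusted p of 0.043. The differences were then −2.92 (to Th) and −2.94 (to Dbh) at 24 h against before, and −0.51 and −0.40 at 8 weeks against before. The 8-week against 24 h tests hold no library from before, so there only the adjustment changed. Without replicate 2, 3, 4 or 5 from before instead, no Pnmt test passed an adjusted p of 0.05. At 24 h against before the adjusted exact permutation p was then 0.17 (to Th) and 0.19 (to Dbh). Replicate 1 had the lowest Pnmt ratios of its group, so leaving it out ended the overlap with later groups. The p of 0.029 against before followed from that choice. Besides its low Pnmt, that library had a fat cell sum of 197 FPKM, where the other 4 had 2151 to 2903, and Egr1, an early growth response factor known to act on Pnmt, at 133 FPKM, where they had 11.1 to 70.6. Fkbp5 and Tsc22d3, known targets of the glucocorticoid receptor, were at 19.8 and 39.9 FPKM there and at 27.8 to 41.2 and 52.7 to 68.2 FPKM in the other 4. Its cortex sum of 26205 FPKM lay within their range. The part of these transcripts in the Pnmt value was not tested. Without 24 h replicates 3 and 4 the 24 h differences from before were −1.53 and −1.89 (exact permutation p = 0.19 each, where 2 against 5 cannot go below 0.095).

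Genes of the glucocorticoid receptor and early growth response list were read beside Pnmt; 7 of 8 were listed. Nr3c1, the receptor's gene, averaged 8.02 ± 1.85 FPKM before TAM (SD, n = 5), 13.3 ± 3.09 at 24 h and 19.4 ± 3.60 at 8 weeks (n = 4 each), and it passed as higher at 24 h (log2 0.75, SE 0.20, adjusted p = 0.019) and at 8 weeks (1.42, SE 0.20, adjusted p = 0.00018) by edgeR. Tsc22d3 fell at 24 h by 0.76 (SE 0.17, adjusted p = 0.0080) and was higher than before at 8 weeks by 0.48 (SE 0.17, adjusted p = 0.039) on the log2 scale by edgeR. Per1, a clock gene that glucocorticoid also induces, fell at 24 h by 0.85 (SE 0.27, adjusted p = 0.043, edgeR). At 8 weeks Per1 was at 9.52 to 15.1 FPKM, against 19.5 to 32.2 FPKM before TAM. It did not pass there (log2 −0.64, SE 0.27, adjusted p = 0.075, edgeR). Fkbp5 averaged 30.3 ± 8.08 FPKM before TAM and 24.1 ± 3.74 at 8 weeks. By their means, Per1 and Fkbp5 went the other way from Tsc22d3 at 8 weeks. At 24 h the list thus had 1 gene higher and 2 lower. At 8 weeks it had 2 higher and 0 lower, or 3 higher and 1 lower with only the 2 groups in the fit. In the fit of all libraries 19.2% of all genes tested were called at 24 h in either direction and 36.9% at 8 weeks. The fit of 2 groups called 27.3% higher at 8 weeks, and the fit without 24 h replicates 3 and 4 called 21% at 24 h. At 24 h the fit of only the 2 groups gave 1 higher and 1 lower, the fit without 24 h replicates 3 and 4 gave 0 higher and 2 lower, and leaving out 1 library gave 1 to 4 genes called, as it did at 8 weeks. Without 24 h replicate 1 the 24 h call of Nr3c1 was lost (adjusted p = 0.057 by edgeR), and without replicates 3 and 4 together those of Nr3c1 and Tsc22d3 were (0.052 and 0.072). Per1 lost its 24 h call in 10 of 13 fits that left out 1 library, all but those without 24 h replicate 4 or 8-week replicate 1 or 3 (adjusted p of 0.050 to 0.11 by edgeR), and with only the 2 groups in the fit (0.066). The 8-week call of Tsc22d3 was lost without 8-week replicate 1, 2 or 4 or replicate 1, 3, 4 or 5 from before (0.054 to 0.12).

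Around the 9 genes, 7 genes of cofactor supply for catecholamine synthesis had a median log2 change of 0.79 at 8 weeks against before. Of these 3 were called higher and 0 lower. They were Qdpr, which regenerates the cofactor tetrahydrobiopterin (58.5 ± 3.76 FPKM before and 91.7 ± 7.65 at 8 weeks), Pcbd1, which acts in the same recycling (12.2 ± 6.92 and 35.5 ± 14.7), and Gchfr, a regulator of cofactor synthesis (1.52 ± 0.833 and 5.25 ± 5.98). Gchfr and Pcbd1 were highest in 8-week replicate 3, the library with Alb at 13283 FPKM: Gchfr was at 14.2 FPKM there and at 1.81 to 2.71 in the other 3, and Pcbd1 at 57.0 and at 25.7 to 33.0. Without that library Gchfr averaged 2.27 ± 0.450 FPKM (log2 0.66, adjusted p = 0.41 by edgeR) and Pcbd1 28.3 ± 4.03 (1.30, adjusted p = 0.10), so 1 of 7, Qdpr, was called. Gchfr also lost its call without 24 h replicate 1, 2 or 4 or replicate 1, 2, 3 or 4 from before, and Pcbd1 without replicate 3, 4 or 5 from before. Of 6 listed genes of catecholamine transport and breakdown 2 were higher and 0 lower. These were Maob, a mitochondrial monoamine oxidase, at 14.5 ± 3.55 FPKM before and 43.3 ± 5.30 at 8 weeks, and Slc22a3, an uptake transporter, at 1.09 ± 0.801 and 5.12 ± 2.25. Slc22a3 lost its call without 8-week replicate 1 or 4 or replicate 2 or 3 from before (adjusted p of 0.059 to 0.069 by edgeR). Slc6a2, the noradrenaline transporter, was at 1.13 ± 0.419 and 5.10 ± 1.12 FPKM (log2 2.30, adjusted p = 0.079, and 0.00014 with only the 2 groups in the edgeR fit). That fit had 4 of 7 cofactor genes higher, and 4 higher and 1 lower of the 6 transport and breakdown genes.

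Granule cargo and peptide processing genes did not go 1 way. Of 13 listed, 1 was higher and 2 lower at 8 weeks. Penk, the enkephalin precursor, was at 9.501 ± 3.38 FPKM before and 34.7 ± 9.12 at 8 weeks (log2 1.99, SE 0.31, adjusted p = 0.00041 by edgeR). Cpe, a carboxypeptidase that trims peptide precursors, fell by 1.93 on the log2 scale (SE 0.31, adjusted p = 0.00042 by edgeR), from 536 ± 85.3 to 130.3 ± 50.6 FPKM. Pam, which amidates peptides, fell by 0.75 (SE 0.20, adjusted p = 0.0093 by edgeR). Cpe was also at 924 FPKM in 24 h replicate 3, where the 9 genes were nearly absent. Penk likewise did not follow the 9 genes: it was at 19.4, 7.78, 10.4 and 19.3 FPKM in 24 h replicates 1 to 4, against 7.34 to 15.4 before TAM. With only the 2 groups in the fit 10 of 13 were higher and the same count, 2, lower.

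Of 14 genes of the release machinery 0 were lower at 8 weeks. At 24 h 1 was lower, Vamp2, a vesicle SNARE, which fell by 0.70 (SE 0.12, adjusted p = 0.0017 by edgeR). Of 11 chromaffin transcription factors 1 was higher at 8 weeks, Eya1, at 2.58 ± 1.54 FPKM before and 8.08 ± 1.19 at 8 weeks; the median of the 11 was 1.51. Its call was lost without any 1 of the 8-week libraries and without replicate 3, 4 or 5 from before (adjusted p of 0.055 to 0.077 by edgeR). With only the 2 groups in the fit all 11 of these were higher, as were 9 of 14 release genes, with 2 lower. Of 9 listed receptors and calcium channels for nerve input 1 was higher, Cacna1d (log2 0.87), a calcium channel subunit, and Chrnb4, a nicotinic receptor subunit, had 1.65 (adjusted p = 0.16 by edgeR), with 6 of 9 higher in the fit of 2 groups. The medians at 8 weeks against before in the fit of all libraries were 1.64 for transport and breakdown, 1.24 for cargo and processing, 0.84 for release, 0.87 for nerve input and 0.48 for the glucocorticoid receptor list, against 0.03 over all genes tested. Cacna1d lost its call without 8-week replicate 1 or 4 or replicate 3, 4 or 5 from before (adjusted p of 0.058 to 0.062 by edgeR). Over all genes tested 20.5% were called higher in the fit of all libraries and 27.3% in the fit of 2 groups.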

How the data were processed

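Messenger RNA of 13 mouse adrenal libraries was sequenced; the labels' protocols name a stranded kit. The submitters' processing notes name TopHat2 2.0.14, bcl2fastq 2.17 and the build mm10, also called GRCm38. The counting tool: not given in the sources used here. The deposited tables give expected counts (estimated read counts that need not be whole) and FPKM for each transcript and library, per the file headers. The authors' comparison of 8 weeks with before, also deposited, holds the authors' log2 values and ratio, p-value and q-value, per the file headers. Only transcripts in all 3 per-library tables (18738 of 19655 and 19191) were used.

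Expected counts were summed per gene, rounded and tested with edgeR 4.0.16 (R 4.3.3): TMM scaling, filterByExpr, quasi-likelihood test, 1 fit of all 13 libraries without a block, Benjamini-Hochberg adjustment over 14078 genes, threshold 0.05. Standard errors were taken from the fold change and its F statistic, as their quotient after a square root of the latter. DESeq2 1.42.0, limma 3.58.1 and scipy 1.17.1 served for alternatives and exact permutation tests. The edgeR step was tested on simulated data. Named genes are the 9 members, then up to 3 genes per pathway list and up to 2 per cell type list with the lowest p at 8 weeks against before, then the 10 genes most correlated with the members and the 3 most like Pnmt. Genes given as marks of a library (Star, Cyp11b1, Cyp21a1, Cyp11a1, Cyp11b2, Akr1b7, Mc2r, Slc18a2, Hand2, Egr1, Fkbp5) were chosen after their values were seen. Members and lists were chosen with earlier results of these data known. Expected counts can split reads among similar genes. Some results are not reported here. No 2 libraries of 1 group agreed within sampling noise.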

Additional observations from a re-analysis of the deposited data

Results flagged for a closer look

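Of 36 groups of values tested (the 9 genes and 3 ratios in each of the 3 groups), 3 held a library far from the others by Dixon's test, and chance gives about 1 in 20. Pnmt stood at 624 FPKM in replicate 2 from before TAM, where the next library had 233. Npy stood at 1109 FPKM in 8-week replicate 2, where the next had 672. The ratio of Pnmt to Dbh was 0.422 in replicate 1 from before TAM, where the next lowest was 1.70.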

How the results depend on the processing

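For 8 weeks against before, 0 of 9 genes were called with all libraries. With only those 2 groups 8 were called, 8 without scaling factors, 9 by DESeq2, and 7 to 9 with 1 library left out; without 24 h replicates 3 and 4 8 were called. Leaving 1 library out of the full fit gave 0 to 1 (1 without 24 h replicate 3). For 8 weeks against 24 h the count was 1 by DESeq2, 2 without 24 h replicates 3 and 4, 4 when those were left out of the fit of 2 groups, and 0 to 2 with 1 library left out. For 24 h against before it was 0 in each.

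Directions at 24 h against before turned without replicates 3 and 4, in the full fit and the fit of 2 groups respectively: Th 0.56 and 0.54, Ddc 0.24 and 0.22, Dbh 0.93 and 0.91, Slc18a1 0.28 and 0.26, Chgb 0.40 and 0.39, Scg2 0.34 and 0.32, Npy 0.79 and 0.77. With 1 library left out Dbh ranged from −1.26 to 0.37, Npy from −1.36 to 0.31 and Th from −1.52 to 0.016, and Npy was 0.15 without replicate 1 from before in the fit of 2 groups.

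With 1 library left out, the log2 ratio of Pnmt to Th ranged from −0.51 to 0.15 (8 weeks against before) and −2.92 to −1.68 (24 h against before), that of Pnmt to Dbh from −0.40 to 0.18 and −2.94 to −1.82, and that of Th to Dbh from −0.011 to 0.145 and −0.20 to 0.043. Without replicate 1 from before and 24 h replicates 3 and 4, Pnmt to Dbh was −0.40 at 8 weeks. The cause was not tested. With the replicate number as a block 0 genes were called in each comparison, and Pnmt to Th at 8 weeks against before was 0.045. Deviations of same-numbered libraries correlated by −0.13 to 0.28, with 2 of 12 pairs over 0.1. Low correlations over all genes cannot exclude that same-numbered libraries share a mouse or a batch. Without scaling factors the median of all genes moved by −0.13 at 8 weeks against before. The few reads in 24 h replicates 3 and 4 limit Pnmt most.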

Other observations

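Among 12855 genes with a mean of at least 1 FPKM, those whose log2 levels followed the mean of the 9 genes most closely over the 13 libraries were Dlk1 (Pearson r 0.996), Hand2 (0.995), Gm2115 (0.995), Resp18 (0.995), Eef1a2 (0.994), Nsg2 (0.994), C1ql1 (0.992), Cyb561 (0.992), Pcsk1n (0.990) and Snap25 (0.988). These are descriptions over libraries that share their medulla content, with no test. Dlk1, a Notch-related membrane protein gene, had 39.7 to 158 FPKM before TAM, 91.6, 63.1, 0.472 and 2.74 FPKM at 24 h, and 119.8 to 189 FPKM at 8 weeks. Cyb561, the granule cytochrome that returns ascorbate for Dbh, had 49.3 to 159.7 FPKM before TAM, 104, 62.3, 6.70 and 15.7 FPKM at 24 h, and 131 to 172 FPKM at 8 weeks. Both were low in 24 h replicates 3 and 4 and neither separated 8 weeks from before.

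Of the 9 genes, Scg2 followed the mean of the other 8 most closely (r 0.999), and Pnmt (0.937) and Npy (0.946) least. The genes most like Pnmt outside the 9 were Slc6a4, the serotonin transporter gene (r 0.980), Pcsk1n (0.969) and Amph (0.966). Slc6a4 had 13.5, 28.2, 8.38, 17.0 and 15.01 FPKM before TAM, 18.2, 10.4, 0.255 and 0.0658 FPKM at 24 h, and 40.04, 43.9, 25.8 and 32.1 FPKM at 8 weeks. Like Pnmt it was lowest in 24 h replicate 4, but in replicate 1 from before TAM it was not the lowest of its group.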
